A study of Mus musculus with 10 samples.

Results

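The PARP genes described here are 9 members of the ADP-ribosylation machinery, chosen by gene symbol from the 23086 genes of the deposited table of normalized counts. They comprise 4 genes of DNA repair (Parp1, Parp2, Parp3 and Parg), 4 genes linked to interferon responses (Parp9, Parp10, Parp12 and Parp14) and the tankyrase gene Tnks. All 9 were in the table and passed the filter on low values, a mean of at least 10 normalized counts over the libraries, which 16517 genes passed. RNA was sequenced from 10 mouse tumours of BBN963 cells, a urothelial (bladder) tumour line, harvested at 500 mm3. The tumours were 5 labelled ATM-WT and 5 labelled ATM-KO, ATM being a kinase of the response to DNA double-strand breaks, with both groups made from the same line. The sources used here do not give the method of the knockout, the number of clones, or the strain, sex and age of the host mice. Nor do they say whether the tumours grew in different animals, and p-values therefore cover only the spread among these 10 samples, which may be technical.

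Poly(ADP-ribose) polymerases and related enzymes transfer ADP-ribose from NAD to proteins. PARP1 and PARP2 bind broken DNA and build chains of ADP-ribose that recruit repair factors, PARP3 attaches single units at breaks, and PARG cuts the chains down. PARP1 and PARP2 are the targets of the PARP inhibitors used against tumours with defective break repair, which is the setting in which ATM loss is of interest. PARP9, PARP10, PARP12 and PARP14 attach single units or, for PARP9, act with the ubiquitin ligase DTX3L, and their genes are induced by interferons. Tankyrase modifies proteins such as AXIN, and so acts on Wnt signalling.

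Upstream sequences are shown for 3 members whose messenger RNA stood in different places in the comparison, Parp1 and Parp12, which were higher in ATM-KO, and Parp3, which was not. RefSeq promoter windows on GRCm38.p6 were matched for 5 of the 9 members (Parp1, Parp2, Parp3, Parg and Parp12). Each line gives the 250 bases before the annotated start, 5′ to 3′ on the strand of the gene. Capitals mark the 1 motif match found. The Parp1 sequence lies at chr1:180568641-180568890 on the plus strand, Parp3 at chr9:106476950-106477199 on the minus strand and Parp12 at chr6:39118350-39118599 on the minus strand.
Parp1: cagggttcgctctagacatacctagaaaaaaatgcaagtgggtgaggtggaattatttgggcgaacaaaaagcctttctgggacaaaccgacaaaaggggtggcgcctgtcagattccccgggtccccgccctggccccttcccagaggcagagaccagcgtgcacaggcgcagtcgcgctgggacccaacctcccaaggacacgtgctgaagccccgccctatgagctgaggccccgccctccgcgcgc
Parp3: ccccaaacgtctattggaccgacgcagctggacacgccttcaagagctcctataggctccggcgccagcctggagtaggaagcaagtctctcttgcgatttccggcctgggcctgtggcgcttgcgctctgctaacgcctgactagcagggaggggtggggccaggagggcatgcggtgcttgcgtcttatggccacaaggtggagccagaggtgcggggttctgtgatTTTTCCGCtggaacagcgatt
Parp12: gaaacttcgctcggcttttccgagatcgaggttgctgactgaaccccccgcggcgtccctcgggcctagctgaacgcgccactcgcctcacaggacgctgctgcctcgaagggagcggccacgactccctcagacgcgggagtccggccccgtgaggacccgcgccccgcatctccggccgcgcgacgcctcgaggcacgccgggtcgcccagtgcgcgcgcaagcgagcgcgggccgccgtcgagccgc

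Windows of 250 bases before and 50 after the start were searched on both strands for the cores of 3 motifs. The interferon-stimulated response element core (GAAA, any 2 bases, GAAA) was found in 3.44% of all 32851 RefSeq windows, the gamma-activated site core TTCNNNGAA in 8.30% and the E2F core TTTNNCGC in 5.17%. The 6 windows of the 5 matched members (Parg has 2) held none of the first and none of the second. The E2F core was present once, in Parp3, on the gene's own strand and beginning 21 bases before the first transcribed base. The upstream bases of Parp12 were 73.6% G or C with 41 CG pairs, those of Parp1 61.6% with 16 and those of Parp3 61.2% with 16, against medians of 52.4% and 6 over all windows.

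The libraries summed to between 20228200 (A5) and 22302200 (A15) normalized counts. Judged by the spacing of its low values, ATM-WT library A2 was the shallowest, with 1 read worth roughly 2.46 normalized counts, against 0.762 to 1.02 in the others. A2 and A4 listed the most genes at 0 (4824 and 4266, against 2225 to 3602 in the others). The targeted gene did not mark the groups: Atm ranged from 311 to 768 normalized counts in ATM-WT and from 312 to 659 in ATM-KO. The labels do not describe the lesion, so this level is no check of them. Of 20 urothelial and epithelial markers, 19 were tested, 0 were higher and 18 lower in ATM-KO. Among those lower, Upk3a, Upk3b and Grhl3 were listed at 0 in every ATM-KO library, so they passed the filter through their ATM-WT libraries alone. The summed level of the 20 markers was 88799 to 242179 normalized counts in ATM-WT and 2980.1 to 4979 in ATM-KO. Lower but still present in ATM-KO, among others, were Krt18 (mean 1710 against 4524 in ATM-WT), Gata3 (430 against 841) and Foxa1 (219 against 816). Pparg (121 against 162) did not pass. These genes were named after their values were seen. The labelled tissue was thus not borne out by most of its defining markers in the ATM-KO tumours.

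In ATM-KO tumours 4 of the 9 members rose, Parp1 and Parg of the repair group and Parp10 and Parp12 of the interferon-linked group, and 0 fell. Parp10 doubled on average, at a ratio of mean levels of 1.99, and Parp1 followed at 1.59, Parp12 at 1.45 and Parg at 1.37. Parp2, Parp3, Parp9, Parp14 and Tnks did not pass the test. Among all genes tested, 22.1% were called higher and 24.3% lower, 46.4% in all. Of these calls 47.6% were higher, and 57.6% after quantile normalization, which moved the median of all genes from 0.0047 to 0.15. Calls are at a Benjamini-Hochberg adjusted p below 0.05 over all genes in limma. Differences below are log2 fold changes with their SE, taken as ATM-KO less ATM-WT of log2(normalized count + 1), and levels are means ± SD of 5 libraries in normalized counts. The tumours are bulk samples, so more cells of a type and more RNA per cell cannot be told apart.

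**Figure D1:**
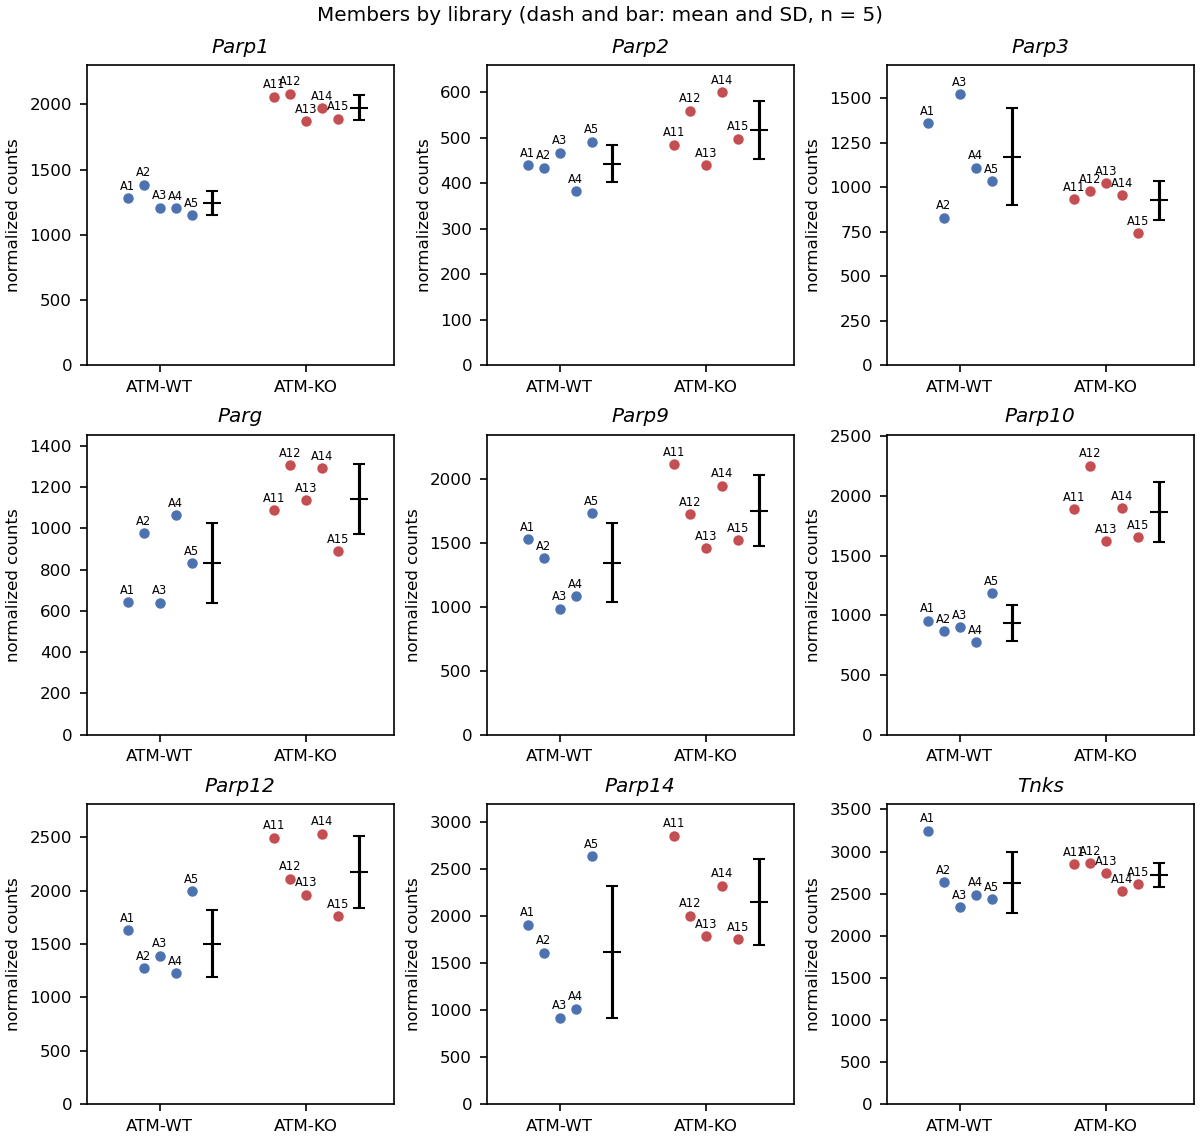
Normalized counts of the 9 members (y axis, from 0) in each library (points, labelled A1 to A5 for ATM-WT in blue and A11 to A15 for ATM-KO in red), with mean and SD (n = 5 per genotype) beside the points. The 5 ATM-KO libraries lie above every ATM-WT library for Parp1 and Parp10, and the genotypes overlap for the other 7 members.

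Parp1, the main sensor of DNA strand breaks, separated the genotypes completely. In ATM-WT (A1 to A5, in this order throughout) Parp1 stood at 1282, 1385, 1208, 1205 and 1148 normalized counts. In ATM-KO (A11 to A15) it stood at 2060.4, 2084, 1872, 1972 and 1891. The lowest ATM-KO library stood above the highest ATM-WT library, and both groups were tight, with coefficients of variation of 7.34% and 4.86%. The mean level rose from 1246 ± 91.4 to 1976 ± 96.0, a log2 fold change of 0.67 ± 0.08 (95% interval 0.48 to 0.85, limma adjusted p = 4.37e-05). The exact two-sided permutation p was 0.0079, the smallest that 5 against 5 can give. Among the 9 members 2, Parp1 and Parp10, had every ATM-KO library above every ATM-WT library. Of all genes tested 17.0% did, 18.2% had every ATM-KO library below, and 35.2% did not overlap in either direction.

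Parp2, the second DNA-dependent polymerase, was lower in level and did not pass. Parp2 levels in ATM-WT were 440.0, 434, 467, 382 and 491 normalized counts, and those in ATM-KO were 485, 559.7, 439, 599.5 and 498. In ATM-KO 3 of 5 libraries lay above the ATM-WT maximum, and A13 lay among the ATM-WT libraries. The log2 fold change of 0.22 ± 0.13 had a 95% interval from -0.06 to 0.49 (limma adjusted p = 0.179, exact permutation p = 0.0714). After quantile normalization Parp2 passed at 0.34 (adjusted p = 0.0422), with adjusted p of 0.0422 to 0.413 across its alternatives.

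Parp3, which acts at double-strand breaks during end joining, was the 1 repair member with a lower mean in ATM-KO. Its ATM-WT levels were spread, at 1362, 829, 1522, 1109.7 and 1036 normalized counts. Its ATM-KO levels were 933, 977, 1022, 955 and 741. ATM-WT library A2 stood inside the ATM-KO range, while the other 4 ATM-WT libraries were above all ATM-KO libraries. With all libraries the log2 fold change was -0.32 ± 0.16 (95% interval -0.66 to 0.03, limma adjusted p = 0.123, exact permutation p = 0.127). Without A2, the shallowest library, it was -0.43 and passed (adjusted p = 0.0217), and without A2 and A4 it was -0.49 (adjusted p = 0.0174, with 0.0174 to 0.269 across its alternatives).

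Parg, the glycohydrolase that removes poly(ADP-ribose), rose by a margin that depended on single libraries. Across the ATM-WT libraries Parg stood at 642, 978, 640.1, 1064 and 832 normalized counts, and across ATM-KO at 1089, 1305, 1137, 1293 and 891. In ATM-KO 4 of 5 libraries lay above the ATM-WT maximum, and A15 lay below ATM-WT libraries A2 and A4. The mean rose from 831 ± 193 to 1143 ± 169.7, a log2 fold change of 0.48 ± 0.17 (95% interval 0.12 to 0.84, limma adjusted p = 0.0316, exact permutation p = 0.0397). The call was lost without any one of A1, A3, A5, A11, A12, A13 or A14, at log2 fold changes of 0.39, 0.39, 0.48, 0.49, 0.43, 0.48 and 0.43 with limma adjusted p of 0.0689, 0.0696, 0.0511, 0.0510, 0.0784, 0.0588 and 0.0780. It was also lost without the variance trend (adjusted p = 0.0551), and without A2 and A4 it held at 0.69 (adjusted p = 0.00254).

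Among the interferon-linked members Parp10, a mono-ADP-ribosyltransferase first found as a partner of MYC, had the largest difference of the 9. Parp10 levels in ATM-WT were 956, 866, 898, 773 and 1183 normalized counts. Those in ATM-KO were 1891, 2253, 1622, 1896 and 1657. Every ATM-KO library lay above every ATM-WT library. The mean rose from 935 ± 153 to 1864 ± 252.1, a log2 fold change of 1.00 ± 0.13 (95% interval 0.72 to 1.28, limma adjusted p = 5.11e-05, exact permutation p = 0.0079).

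Parp12, a zinc-finger member with antiviral activity, also rose. The ATM-WT libraries held 1629, 1276, 1392, 1228 and 1998 normalized counts of Parp12, and the ATM-KO libraries held 2497, 2115, 1963, 2536 and 1764. ATM-WT library A5 stood above ATM-KO libraries A13 and A15, and the other 4 ATM-WT libraries stood below all of ATM-KO. The mean rose from 1504 ± 316 to 2175 ± 336, a log2 fold change of 0.54 ± 0.15 (95% interval 0.22 to 0.86, limma adjusted p = 0.00973, exact permutation p = 0.0238). Without A2 and A4 the value was 0.38 (adjusted p = 0.0549), and with array weights 0.39 (adjusted p = 0.0572, with 0.00236 to 0.0572 across its alternatives).

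Parp14, a large macrodomain protein of STAT6 and interferon signalling, was the most variable member. The ATM-WT libraries held 1904, 1609, 919, 1015 and 2631 normalized counts of Parp14, and the ATM-KO libraries held 2851, 2002, 1786, 2320.3 and 1753. ATM-WT ranged from the lowest value of all in A3 to the second highest in A5, and 1 ATM-KO library, A11, lay above A5. The coefficient of variation was 43.3% in ATM-WT and 21.3% in ATM-KO. The log2 fold change of 0.49 ± 0.26 did not pass (95% interval -0.07 to 1.06, limma adjusted p = 0.140, exact permutation p = 0.167). Without A5 it was 0.70 (adjusted p = 0.0265), and without A2 and A4 0.34 (adjusted p = 0.353, with 0.0265 to 0.434 across its alternatives).

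Parp9, the partner of DTX3L, ranked its libraries much as Parp14 did. The ATM-WT libraries held 1530.5, 1382, 987, 1085 and 1733 normalized counts of Parp9, and the ATM-KO libraries held 2117, 1723, 1457, 1949 and 1522. In ATM-KO 2 of 5 libraries lay above the ATM-WT maximum. The log2 fold change was 0.40 ± 0.16 (95% interval 0.05 to 0.76), and it missed the threshold (limma adjusted p = 0.0614, exact permutation p = 0.0794). It passed without A1 (0.46, adjusted p = 0.0466) or A5 (0.50, adjusted p = 0.0241, with 0.0241 to 0.191 across its alternatives). Dtx3l itself changed by 0.19 ± 0.20 (95% interval -0.23 to 0.61, limma adjusted p = 0.454). In GENCODE M21 the exons of Parp9 and Dtx3l overlap on opposite strands, so reads of this pair may be shared if the counting did not use strand.

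Tnks, the tankyrase gene, differed least. The ATM-WT libraries held 3249, 2634, 2342, 2489 and 2430.5 normalized counts of Tnks, and the ATM-KO libraries held 2848, 2862, 2745, 2532 and 2611. All ATM-KO libraries fell inside the ATM-WT range, which A1 stretched upward. The log2 fold change was 0.06 ± 0.10 with a 95% interval from -0.16 to 0.27 (limma adjusted p = 0.666, exact permutation p = 0.579), and it was -0.04 after quantile normalization.

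**Figure D2:**
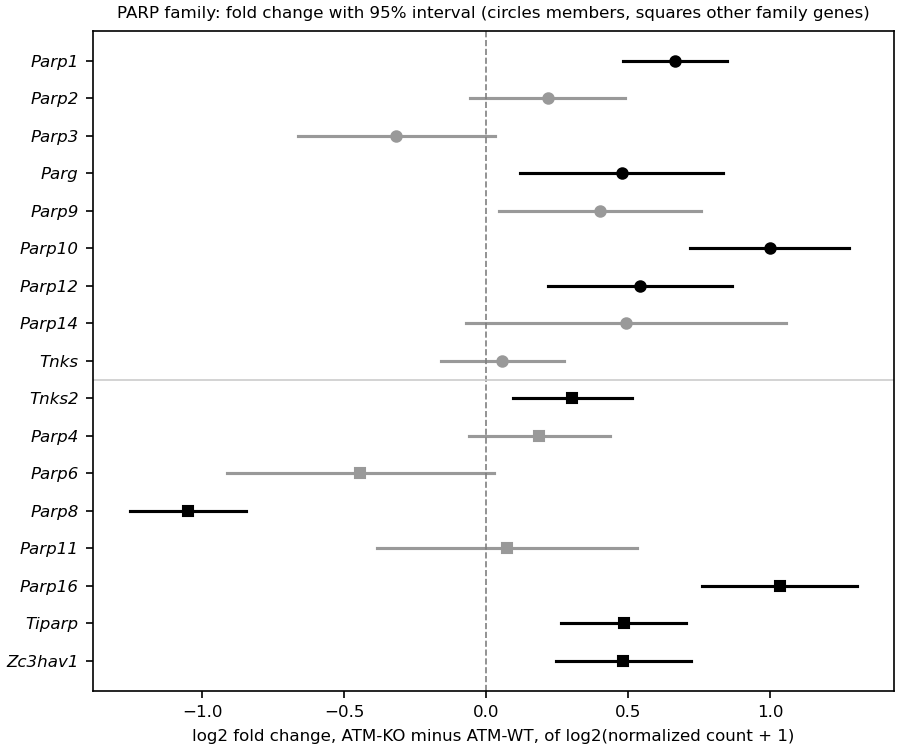
Log2 fold changes (x axis, ATM-KO less ATM-WT of log2(normalized count + 1)) with 95% intervals of the 9 members (circles) and 8 other PARP family genes (squares), black where limma's adjusted p passed and grey where it did not. Parp10 and Parp16 lie near 1, Parp8 near -1, and the widest member interval is that of Parp14.

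The other 8 genes of the family moved in both directions, with 4 higher (50%) and 1 lower (12.5%). Among all genes tested 22.1% were higher and 24.3% lower. The 8 genes had a median log2 fold change of 0.25, against 0.0047 over all genes tested. Parp16, which acts at the endoplasmic reticulum, rose from 239 ± 24.2 to 489 ± 25.02 (1.03 ± 0.13, limma adjusted p = 3.20e-05). Parp8 fell from 1159 ± 94.2 to 558 ± 19.4 (-1.05 ± 0.09, limma adjusted p = 3.20e-06). Tiparp, a target of the aryl hydrocarbon receptor, rose by 0.48 ± 0.10 and the antiviral zinc-finger gene Zc3hav1 by 0.48 ± 0.11. Tnks2, the second tankyrase, rose by 0.30 ± 0.10 (limma adjusted p = 0.0211), and its call was lost after quantile normalization (0.19). Parp4 (0.19 ± 0.11), Parp6 (-0.44 ± 0.22) and Parp11 (0.07 ± 0.21) did not pass.

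Levels of different members can be set side by side only per length, here as normalized counts per kb of the longest coding transcript in GENCODE M21. In ATM-WT the order ran Parp12 (466 ± 97.9), Parp3 (396 ± 92.3), Parp9 (379 ± 87.1), Parp1 (322 ± 23.6), Tnks (287 ± 39.6), Parp10 (278 ± 45.6), Parp2 (234 ± 21.6), Parp14 (218 ± 94.4) and Parg (188 ± 43.6) per kb. Every pair of neighbours in that order overlapped in the range of its libraries. In ATM-KO the order ran Parp12 (673 ± 104), Parp10 (553.5 ± 74.9), Parp1 (510.1 ± 24.8), Parp9 (494 ± 78.8), Parp3 (312.5 ± 36.5), Tnks (297 ± 15.8), Parp14 (289 ± 61.5), Parp2 (272.5 ± 33.5) and Parg (259 ± 38.5) per kb. Here the lowest library of Parp9 (410.6) lay above the highest of Parp3 (345), which split the members into an upper 4 and a lower 5. Every other pair of neighbours overlapped. With merged exon lengths Parp9 passed Parp3 in ATM-WT, and Parp3 moved below Tnks and Parp14 in ATM-KO.

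**Figure D3:**
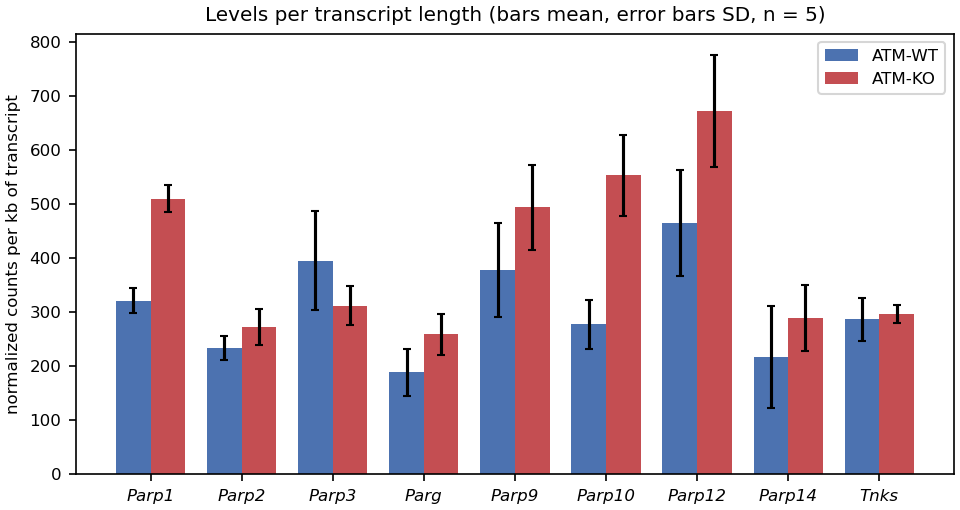
Mean normalized counts per kb of the longest coding transcript (y axis, from 0) of each member in ATM-WT (blue) and ATM-KO (red), with SD as error bars (n = 5). Parp12 has the tallest bar in both genotypes, and the ATM-KO bars of Parp12, Parp10, Parp1 and Parp9 stand above those of the other 5 members.

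Within genotypes the interferon-linked members varied together more closely than the repair members. After subtraction of each genotype's mean from log2(normalized count + 1), Pearson r over the 10 libraries was 0.67 to 0.98 for the 6 pairs of interferon-linked members. For the 6 pairs of repair members it was -0.38 to 0.26, and for the 16 pairs across these groups -0.27 to 0.75. These are descriptions without a test, over libraries that share 1 table and its scaling. Parp9 and Parp14 were closest (r = 0.98, Spearman's rho = 0.99, and r between 0.96 and 0.99 on leaving out each library). The highest pair across groups was Parp2 and Parp10 (r = 0.75, Spearman's rho = 0.81). The contrast between the blocks depended in part on ATM-WT library A5. Without it Parp1 reached r = 0.74 with Parp9, 0.72 with Parp14 and 0.62 with Parp10, against 0.26, 0.14 and 0.06 with all libraries, and Parp10 with Parp14 dropped from 0.67 to 0.42. Pairs with Parg depended on A2 and A4: without them Parg reached r = 0.79 with Parp10, 0.72 with Parp12 and 0.58 with Parp2, against 0.0031, -0.06 and -0.06 with all libraries. Tnks reached r = 0.49 with Parp1, 0.37 with Parp9 and 0.35 with Parp14, and without A5 these were 0.42, 0.65 and 0.74.

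**Figure D4:**
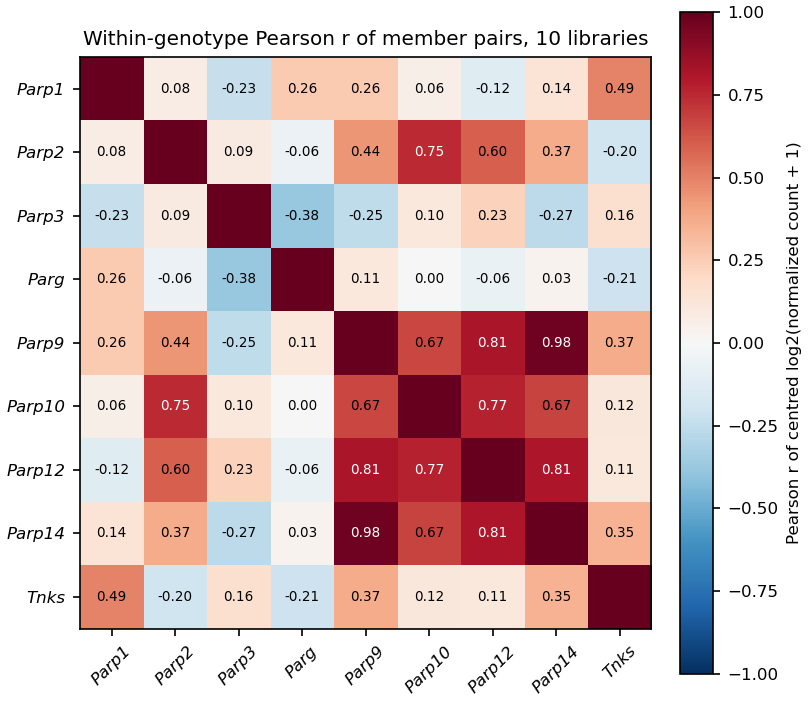
Pearson r of centred log2(normalized count + 1) for each of the 36 pairs of members over 10 libraries, as colour and number, with members on both axes. The block of Parp9, Parp10, Parp12 and Parp14 holds values from 0.67 to 0.98, and the block of Parp1, Parp2, Parp3 and Parg values from -0.38 to 0.26.

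Of 13347 other genes with a mean of at least 50, those most like Parp14 within genotypes included Irgm1 (r = 0.98), Parp9 (0.98), H2-T23 (0.96) and Rtp4 (0.95), by Pearson r over 10 libraries. Irgm1 encodes an interferon-inducible GTPase and H2-T23 a non-classical MHC class I molecule. Those most like Parp1 were Osbpl2 (r = 0.95), Shprh (0.95), L3mbtl2 (0.94), Lig3 (0.94) and Clasp1 (0.91). Without A2 and A4 these r were 0.83 to 0.92 for Parp1 and 0.95 to 0.98 for Parp14. All are the highest values of a search over 13347 genes in 10 libraries. Such a search can reach high r by chance, and none was tested. Lig3 encodes the DNA ligase of single-strand break repair. Lig3 itself did not pass between genotypes, at -0.44 ± 0.23 (limma adjusted p = 0.130).

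**Figure D5:**
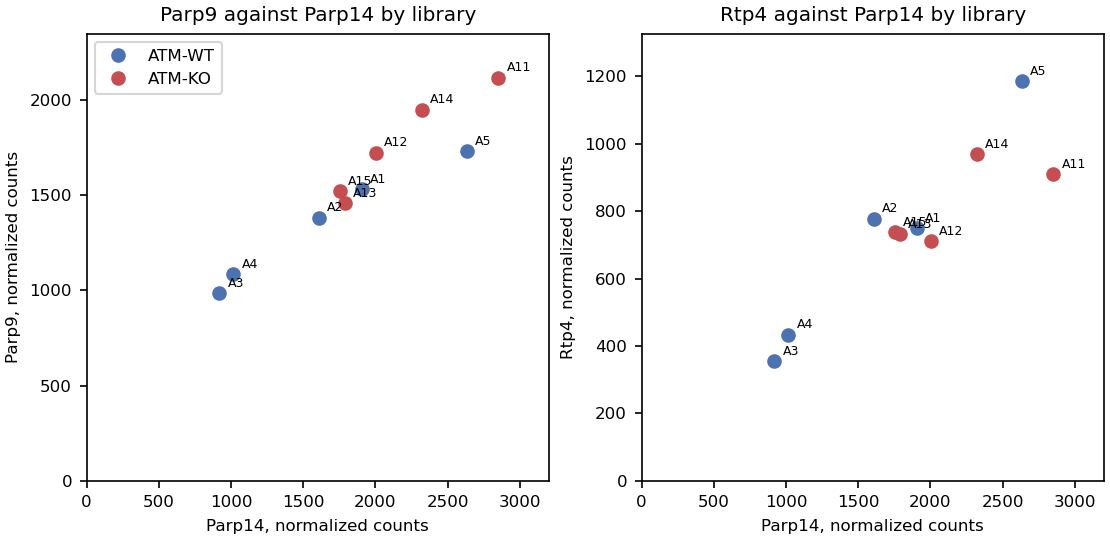
Normalized counts of Parp9 (left) and Rtp4 (right) against Parp14 (x axes) in each library, ATM-WT in blue and ATM-KO in red, all axes from 0. ATM-WT libraries A3 and A4 lie lowest on both axes of each panel. The highest library is A11 for Parp9 and Parp14 and A5, of ATM-WT, for Rtp4.

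The wider interferon response showed a like spread among the ATM-WT tumours. Of 32 interferon-stimulated genes other than PARPs, 12 were higher (37.5%) and 1 lower (3.1%), against 22.1% and 24.3% of all genes tested. Their median log2 fold change was 0.51, against 0.0047 over all genes. The interferon-linked members had a median of 0.52 with 2 of 4 higher. The repair members also had 2 of 4 higher, with a median of 0.35, so that count was not particular to the interferon-linked group. Bst2, which tethers virions (1.78 ± 0.23), the RNA sensor genes Ifih1 (1.29 ± 0.18) and Ddx58 (0.80 ± 0.13), and Ifi35 (0.76 ± 0.11) rose. The antiviral synthetase gene Oas2, named after its value was seen, fell by 1.17 on the log2 scale. The summed level of the 32 genes was 35873, 29222, 21695, 24356 and 49452 normalized counts in ATM-WT libraries A1 to A5 and 42453 to 57177 in ATM-KO. As for Parp14, A3 and A4 were lowest and A5 highest of the ATM-WT libraries. Within genotypes Pearson r with the mean of these genes was 0.91 for Parp14, 0.86 for Parp9, 0.80 for Parp12 and 0.63 for Parp10, and between -0.23 and 0.38 for the other 5 members.

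Of 22 genes of single-strand break and base excision repair 9 were higher (40.9%), 1 was lower (4.55%) and 12 did not pass, with a median of 0.14. Among all genes tested 22.1% were higher and 24.3% lower, so the list held a larger share of higher genes and a smaller share of lower genes. With both directions pooled, the share called was near the 46.4% of all genes. The nucleases Apex2 (1.53 ± 0.17) and Fen1 (1.21 ± 0.14), the replicative ligase Lig1 (1.28 ± 0.17) and the glycosylase Neil3 (1.05 ± 0.15) rose. Polb, the gap-filling polymerase of base excision repair, was the 1 that fell, by 0.74 on the log2 scale. Xrcc1, the scaffold that PARP1 activity recruits, had -0.42 ± 0.18 (limma adjusted p = 0.0658). Polb and Xrcc1 were named after their values were seen. Of 15 tested genes that erase, read or assist ADP-ribosylation 4 were higher (26.7%, near the share of all genes) and 0 lower, with a median of 0.08. These were the chromatin remodeller gene Chd1l (1.01 ± 0.13), Macrod2 (0.98 ± 0.20) and Macrod1 (0.75 ± 0.18), whose products remove single ADP-ribose units, and Nudt5 (0.47 ± 0.12), which hydrolyses ADP-ribose. Hpf1, the cofactor that directs PARP1 and PARP2 to serine, had 0.29 ± 0.17 (limma adjusted p = 0.195), named after its value was seen.

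Of 21 genes known to alter the response to PARP inhibitors 15 were higher in ATM-KO (71.4%) and 3 lower (14.3%). Among all genes tested 22.1% were higher and 24.3% lower. The median of the 21 genes was 0.97. Those higher included the shieldin subunit gene Shld2 (1.55 ± 0.21) and the ribonuclease H2 subunit gene Rnaseh2c (1.07 ± 0.11). The 3 lower were Trp53bp1 (-1.13 ± 0.19), Rif1 (-0.57 ± 0.15) and Shld1 (-1.19 ± 0.26), which act in limiting the resection of breaks. Other genes of that function were higher, Shld2 as above, Mad2l2 (1.10, limma adjusted p = 7.63e-05) and Shld3 (0.85, limma adjusted p = 0.0323). All of these except Shld2 were named after their values were seen. Around Tnks, 18 partners and Wnt genes gave 1 higher (5.56%) and 7 lower (38.9%), with a median of -0.27. Amotl1 (-1.36 ± 0.13), Lgr5 (-3.08 ± 0.41), the beta-catenin gene Ctnnb1 (-1.03 ± 0.15) and Tnks1bp1 (-0.75 ± 0.13) fell. Lnpep, an aminopeptidase that binds tankyrase, was the 1 higher (0.35 ± 0.13) and was named after its value was seen.

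Several cell markers moved with genotype beside these members, and their part in the differences was not tested. The counts below stand against 22.1% higher and 24.3% lower among all genes tested. Of 20 proliferation genes 19 were higher and 1 lower (Ccne1, named after its value was seen), with summed levels of 23996 to 35407 normalized counts in ATM-WT and 50666 to 57967 in ATM-KO. Of 8 leucocyte markers 4 were higher (Cd52, Coro1a, Laptm5 and Lcp1) and 0 lower, with sums of 7924 to 17657 and 17925 to 20166. Of 9 dendritic cell markers 6 were higher and 0 lower (sums 2757.0 to 6153 and 11663 to 14974). Bst2, also counted above as an interferon-stimulated gene, supplied most of these sums, which without it were 959 to 1459 and 3387 to 4131, with 5 of 8 higher. Both counts include Xcr1, at 0 to 13.8 normalized counts in ATM-WT and 19.7 to 54.2 in ATM-KO. Xcr1, named after its value was seen, passed the filter through its ATM-KO libraries, so its call carries little weight. Of 10 fibroblast markers 0 were higher and 8 lower (sums 160874 to 580648 and 38011 to 110103). Macrophage markers gave 1 higher (Cd68) and 2 lower (Cd14 and Itgam) of 12, with sums of 25007 to 70753 and 42863 to 63194. T and NK cell markers gave 2 higher (Cd4 and Gzmb) and 0 lower of 12 tested, with sums of 328 to 1639.6 and 1022 to 2794. B cell markers gave 2 higher (Cd79a and Blk) and 0 lower of 3 tested, with sums of 47.8 to 145 and 436 to 620.0. Endothelial markers gave 0 higher and 1 lower (Kdr) of 8 (sums 2449 to 4529 and 2020.0 to 4132). Of these 8, 5 had a log2 fold change above 0, with a median of 0.0079. Skeletal muscle markers gave 0 higher and 1 lower (Tnni2) of 8 (sums 184 to 2732 and 43.3 to 1564). Tnni2 ran against most of its list, in which 6 of 8 had a log2 fold change above 0, with a median of 1.40. Apart from Upk3a, Upk3b and Grhl3, no marker of these lists was at 0 in every library of a genotype. The ATM-WT libraries A2 and A4, highest in Parg, had the lowest leucocyte sums (7924 and 8926) and the highest epithelial sums (242179 and 191097). Within genotypes Parg had r = 0.76 with the epithelial mean and r = -0.76 with the leucocyte mean, and Parp3 had r = 0.72 with the leucocyte mean and r = -0.81 with the proliferation mean. These r were not recomputed without A2 and A4. For Parp1 they were 0.07, -0.46 and 0.32 with the epithelial, leucocyte and proliferation means.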

How the data were processed

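The authors deposited 1 table of normalized counts per gene, a signal that is never negative, with 10 columns. STAR, Salmon and DESeq2 are named in the submitters' processing notes. Not given in the sources used here are the role, version and settings of each tool, the build, the annotation and the use of strand. Columns name a genotype and a library number that no label carries, so they were assigned to groups only. Whole reads could not be recovered (of values up to 20 reads, 58.5% to 69.2% per library fell within 0.05 of a whole multiple of 1 read), so no count model was run and depths are rough.

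Genes with a mean of at least 10 entered a linear model of log2(value + 1) by genotype (limma 3.58.1, R 4.3.3, empirical Bayes with a variance trend), with p-values adjusted by Benjamini-Hochberg over all 16517 genes at 0.05. Exact permutation tests of single members are two-sided over all assignments of 5 against 5. The fit was tested on simulated data. In 354 symbols a dash altered on export was restored. Members and the 21 gene lists were chosen with earlier results of these data known. Named genes are the members, Dtx3l, Zc3hav1, Tnks2, the 4 genes with the smallest p of each pathway list, and the 5 genes most like Parp1 and Parp14. Some of them are not reported here. Lists are described by counts and medians only. Promoters come from RefSeq on GRCm38.p6 and lengths from GENCODE M21, and no coordinates of the authors' build are used. Python 3.11.15, numpy 2.4.6, pandas 2.3.3 and matplotlib 3.10.9 were used. Alternatives covered the pseudocount (0.1 and 10), the filter (none and 50), scaling, the variance model, array weights and leaving out libraries. The merged exon length and the dendritic sums without Bst2 were chosen after seeing the data.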

Additional observations from a re-analysis of the deposited data

How the results depend on the processing

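No paired analysis was possible because the columns carry library numbers that match no replicate number of the labels. Over 20 alternatives, Parp1 and Parp10 kept their direction and call in each, with log2 fold changes of 0.63 to 0.71 and 0.86 to 1.09. Of the 9 members, 4 were called higher with all libraries and 3 to 5 on leaving out each library. The count called lower was 0 with all libraries, 0 to 1 on leaving out each library (1 without A2, Parp3) and 1 without ATM-WT libraries A2 and A4. Tnks reversed from 0.06 to -0.044 after quantile normalization, a scaling that moved the median of all genes to 0.15, and neither value passed. Over all members and alternatives, 163 values kept direction and call, 10 lost the call, 6 gained it and 1 reversed. The causes of these changes were not tested. The part of depth was not tested. In A2, the shallowest library, 1 read was worth roughly 2.46 normalized counts.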

Other observations

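NAD, the substrate of every PARP enzyme, is rebuilt from nicotinamide by NAMPT and the NMNAT enzymes. Of 20 genes of NAD supply and other NAD users 4 were higher (20%) and 2 lower (10%) in ATM-KO, against 22.1% and 24.3% of all genes tested, with a median log2 fold change of 0.02. Nampt, the rate-limiting enzyme of salvage, rose from 1896 ± 361 to 3909.8 ± 327 normalized counts (1.06 ± 0.13, limma adjusted p = 2.73e-05). The last step was split between its genes, with Nmnat2 higher (2.26 ± 0.31) and Nmnat3 (-0.70 ± 0.14) and Nmnat1 (-0.77 ± 0.21) lower. The mitochondrial NAD kinase gene Nadk2 also rose (0.79 ± 0.12). The fourth higher gene, the NAD hydrolase gene Sarm1, was near the floor, at 0 to 20.9 normalized counts in ATM-WT and 14.9 to 41.9 in ATM-KO, and passed the filter through its ATM-KO libraries, so no fold is given. Nmnat1 and Sarm1 were named after their values were seen.

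Of 10 tested genes for interferons, their receptors and pathway kinases 2 were higher (20%) and 1 lower (10%), with a median of 0.04. The list held 13 genes, of which Ifnb1, Ifna4 and Ifnl3 were not found among the deposited symbols. The 1 interferon gene tested was Ifng, which was near the floor, with means of 16.8 normalized counts in ATM-WT and 16.7 in ATM-KO. The interferon genes themselves were thus hardly covered. Among all genes tested 22.1% were higher and 24.3% lower. The kinase gene Jak1 (0.45 ± 0.14) and the type I receptor subunit gene Ifnar2 (0.50 ± 0.17, from 988 ± 277 to 1357 ± 89.9 normalized counts) rose, and the interferon gamma receptor subunit gene Ifngr1 (-0.55 ± 0.13) fell. Without A2 and A4 the calls of Jak1 (0.26, limma adjusted p = 0.0556) and Ifnar2 (0.21, limma adjusted p = 0.123) were lost. Jak1 was also lost after quantile normalization (0.35, limma adjusted p = 0.0643). Ifnar2 was lost under 7 of 20 alternatives, among them leaving out A2, A4, A12, A14 or A15 (0.39 to 0.49, limma adjusted p = 0.0596 to 0.0697) and the model without a variance trend (0.50, limma adjusted p = 0.0547). The fourth gene by p, Ifngr2, did not pass (0.32 ± 0.13, limma adjusted p = 0.0563).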
